A study of Mus musculus with 6 samples.

Results

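Collagens and laminins are the main structural proteins of the extracellular matrix, and each is a trimer of chains encoded by the same gene or by different genes. The 55 mouse genes examined here are those whose array name, or whose current symbol through the probe's accession, reads as a collagen chain (Col, a type number, a, a chain number) or a laminin chain (Lam, then a, b or c and a number). They were 44 collagen genes and 11 laminin genes, measured by 83 of the 55681 probes of the array. Of these probes, 81 carried the chain name in the array design and 2 were matched through their accession to Col26a1, while 1 probe for a ceramide transporter whose name only begins like a collagen chain was left out.

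Their expression was compared between 2 groups of 3 samples each, normal liver and liver tumor, on arrays hybridised with 1 dye. All 6 tissues came from male C3H/HeN mice of 74 to 75 weeks that descended from untreated animals given standard diet and tap water, a strain in which liver tumors arise spontaneously with age. The tumors were whole macroscopic tissue carrying a Ha-ras mutation, which is known from the study's methods and not from the sample labels, so other tumor genotypes are not represented. The labels do not say whether the 3 samples of a group came from 3 animals, so the p-values measure only the spread between these samples. In bulk tissue, fewer cells of a type and less RNA per cell cannot be told apart.

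Fibrillar collagens (types I, II, III, V, XI, XXIV and XXVII) assemble into banded fibrils in the interstitial matrix, and in liver they are made mostly by stellate cells and fibroblasts. Type IV collagen and laminins form the sheets of basement membranes, where type IV chains make a covalent network and each laminin is a cross of 1 alpha, 1 beta and 1 gamma chain. The space between sinusoidal endothelium and hepatocytes of normal liver holds matrix of both kinds but no continuous basement membrane. Type IV collagen exists as 3 alternative trimers, built from the products of Col4a1 and Col4a2, of Col4a3, Col4a4 and Col4a5, or of Col4a5 and Col4a6. The genes lie head to head in pairs, Col4a1 with Col4a2, Col4a3 with Col4a4, and Col4a5 with Col4a6. In the following, an expression value is a probe's processed signal divided by the 75th percentile of its array, on a linear scale, and each gene is represented by its brightest probe. Because probes differ in how well they hybridise, expression values were compared between samples and not between genes.

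The arrays gave 42.7 to 46.7% of spots well above background (a call of the scanner software), with no saturated spots. All normal livers lay on 1 slide and all tumors on another, with median local backgrounds of 42 to 45 and of 22 to 23 intensity units, so that slide and tissue type cannot be told apart in any comparison. Of the 55 genes, 32 met the filter on low values (every array of normal liver, of tumor or of both well above background) and were tested, 7 were above it on some arrays but did not meet this condition, and 16 were above it on no array. Hepatocyte markers were present in both groups, with Alb between 1923 and 2449 in normal liver and between 2123 and 2221 in tumor.

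Between tumor and normal liver, 8 of the 32 tested chain genes rose (25.0%) and 7 fell (21.9%), while 17 did not pass the test (limma, Benjamini-Hochberg adjusted p under 0.05 over all 24898 probes tested). Among all 18544 genes tested, 13.1% rose and 21.0% fell, so the share of falling chains was near that of genes at large. With a change of 2-fold or more required as well, 8 chains rose and 4 fell, beside 7.78% and 6.83% of all genes. The genes that rose were Col1a1, Col4a1, Col4a3, Col4a4, Col4a5, Col6a6, Lama5 and Lamb2, and those that fell were Col5a1, Col5a3, Col14a1, Col27a1, Lama1, Lama3 and Lamb1. Of the 8, Col4a3, Col4a5 and Col6a6 passed the filter on low values only through the tumors and were thereby selected for a higher value there. Among the 28 genes well above background on all 6 arrays, 5 rose (17.9%) and 7 fell (25.0%), beside 11.1% and 21.2% of all such genes. The median log2 fold change of the 32 genes was -0.24, against -0.13 for all genes tested. The highest sample of one group lay below the lowest of the other for 21 of the 32 chains (65.6%) and for 51.8% of all genes tested, and for 18 of the 28 chains above background on all arrays beside 51.0% of such genes.

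The number of rising chains stayed at 8 to 10 when any one array was left out, but the falling chains became 2 without normal liver 2 and 4 without normal liver 1. When arrays were scaled to 7 spiked control probes instead of the 75th percentile, all probes moved upward in tumors by 0.15 on the log2 scale. The median of all genes then changed from -0.13 to 0.03, the share of rising among called probes from 37.8 to 59.6%, and the chains to 8 rising and 5 falling, with Col5a1 and Col14a1 no longer called, beside 12.7% rising and 8.50% falling of all genes. With a change of 2-fold or more, a mean above 1.0 in either group and an unadjusted p under 0.05 in the methods' t-test, run without pairing, 4 chains rose and 4 fell, beside 7.20% and 6.90% of the 12007 genes with such a mean. With the test paired by sample number, as the methods state it, 5 chains passed in either direction, beside 10.9% of these genes. In both comparisons only chains with a mean above 1.0 could pass, and Col4a3, Col4a4, Col6a6 and Lamb2 were among those without it.

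The counts for each group of chains follow, beside 13.1% rising and 21.0% falling among all genes tested, and differences between the groups were not tested. Of 7 tested fibrillar genes 1 rose and 3 fell, with a median log2 fold change of -0.25. All 6 type IV genes were tested, of which 4 rose and none fell, with a median of 1.67 that was the same with dim genes set at their lower bound. Of the 4 that rose, Col4a3 and Col4a5 passed the filter on low values only through the tumors. Among the 4 type IV genes above background on all arrays, 2 rose, beside 11.1% of all such genes, and their median was 0.76. When each gene was represented by its probe brightest in normal liver instead, a choice made after seeing the data that changed the probe of Col4a4, 3 type IV genes rose and the median of the 6 was 0.76. Of 9 tested laminin genes 2 rose and 3 fell, with a median of -0.28, and of 10 tested other collagen genes 1 rose and 1 fell, with a median of -0.39. The laminin median was -0.019 without normal liver 1.

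**Figure D1:**
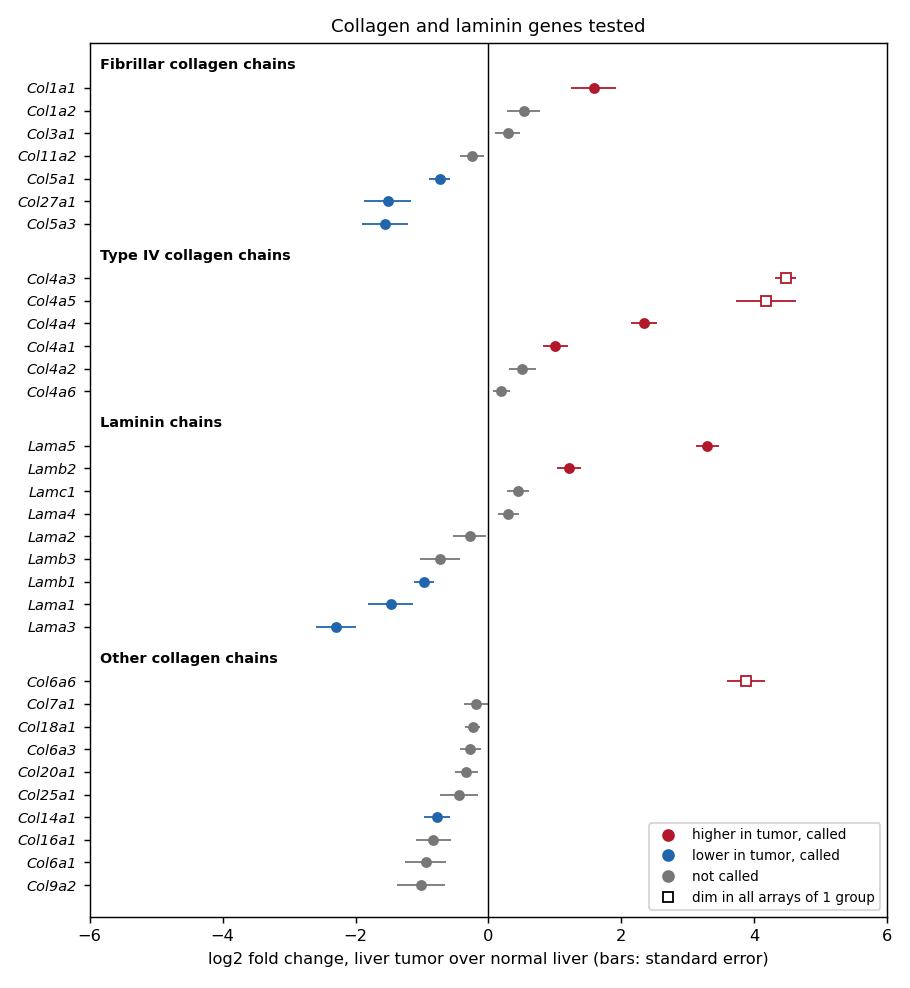
Log2 fold change of liver tumor over normal liver for the 32 chain genes tested, with standard errors as bars (n = 3 per group), red for genes that rose, blue for genes that fell and gray for genes that did not pass the test. Open squares mark Col4a3, Col4a5 and Col6a6, not well above background on any normal array and drawn at their fitted values, which are not bounds. By brightest probes the type IV group is the one with no gene left of 0.

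Type IV collagen is described first. Col4a1 and Col4a2 encode the chains of the trimer found in nearly all basement membranes. Col4a1 had expression values of 1.54, 1.38 and 1.32 in normal livers 1 to 3 and of 2.97, 3.47 and 2.20 in tumors 1 to 3. The groups did not overlap, and Col4a1 was 2.01-fold higher in tumor (log2 fold change 1.01, SE 0.18, adjusted p = 0.00917 by limma). Col4a2 had values of 2.69, 2.44 and 2.46 in normal livers and of 3.99, 4.38 and 2.68 in tumors. Tumors 1 and 2 were above all normal livers and tumor 3 was among them, and Col4a2 did not pass the test (log2 fold change 0.51, SE 0.20, adjusted p = 0.0915 by limma), though it did without tumor 3 (adjusted p = 0.0132 by limma). In both genes tumor 3 was the lowest of the tumors.

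Col4a1 and Col4a2 lie on opposite strands of chromosome 8 with their annotated 5′ ends overlapping by 85 bases (RefSeq, GRCm38.p6). The 300-base windows around their annotated starts (250 bases before, 50 after) share 78 bases, which are the last 78 of the Col4a2 window printed here. It is shown because the members of this gene pair, which have their starts in common, moved by 1.01 and 0.51 on the log2 scale. Capitals mark matches to GGGCGG (the GC box) and to the CCAAT box, on either strand, and the window lies at chr8:11312555-11312854 on the plus strand.
Col4a2: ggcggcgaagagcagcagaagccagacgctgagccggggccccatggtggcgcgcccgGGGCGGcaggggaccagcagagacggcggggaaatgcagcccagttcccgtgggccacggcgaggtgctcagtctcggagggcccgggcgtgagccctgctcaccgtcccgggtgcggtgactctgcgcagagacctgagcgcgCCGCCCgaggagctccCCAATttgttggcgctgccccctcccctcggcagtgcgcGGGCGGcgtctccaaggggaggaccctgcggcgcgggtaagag
This window had a GC content of 73.7% with 33 CpG dinucleotides, and the Col4a1 window 74% with 37, against medians of 52.7% and 7 over 27025 mouse promoter windows. The GC box was present on either strand in 35.9% of these promoters, and the CCAAT box in 37.9%.

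Col4a3, Col4a4 and Col4a5 encode the trimer best known from the glomerular basement membrane of the kidney. Col4a3 had values of 0.0342, 0.0265 and 0.0303 in normal livers, none well above background, and of 0.761, 0.702 and 0.560 in tumors, all well above it. It was at least 5.15-fold higher in tumor (adjusted p = 3.7e-05 by limma). Here and in the following, a bound compares the tumor mean with the lowest signal well above background on each normal array, or with the probe's own signal where that was higher. Wherever an adjusted p stands beside a bound, it comes from the fit on signals that were not well above background in normal liver. Such a gene was selected through the tumors, so this p is no support for the bound. Col4a5 had values of 0.0882, 0.134 and 0.0489 in normal livers, again not well above background, and of 1.35, 1.02 and 2.49 in tumors. Tumor 3 was the highest of the tumors for this gene and the lowest for Col4a3, and Col4a5 was at least 11.4-fold higher in tumor (adjusted p = 0.00177 by limma).

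Col4a4, which shares its 5′ end with Col4a3 on chromosome 1, was measured by 3 probes that did not behave alike. Its brightest probe, A_55_P2143832, had values of 0.195, 0.171 and 0.140 in normal livers and of 1.03, 0.855 and 0.683 in tumors. The groups were apart and the difference was 5.05-fold (log2 fold change 2.34, SE 0.20, adjusted p = 0.000693 by limma). Probe A_55_P2143837, of almost the same brightness, had values of 0.327, 0.472 and 0.386 in normal livers and of 0.454, 0.309 and 0.301 in tumors. With this probe the groups overlapped and the gene did not pass the test (log2 fold change -0.16, SE 0.21, adjusted p = 0.592 by limma), and the remaining probe was well above background on no array. In normal liver A_55_P2143837 was brighter than A_55_P2143832, and the rise of Col4a4 rests on 1 of its probes.

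Col4a6, the partner of Col4a5 in the trimer of epithelial and smooth muscle basement membranes, lies 1274 bases from it on chromosome X. Its expression values were 0.452 to 0.541 in normal livers and 0.521 to 0.609 in tumors. It did not pass the test (log2 fold change 0.19, SE 0.13, adjusted p = 0.290 by limma), whereas the other member of this head-to-head pair was at least 11.4-fold higher.

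The promoter windows of Col4a4 and Col4a5, 1 from each of the other head-to-head pairs, are shown for comparison with that of Col4a2. Capitals have the same meaning, and the windows lie at chr1:82586800-82587099 on the minus strand and chrX:141475169-141475468 on the plus strand.
Col4a4: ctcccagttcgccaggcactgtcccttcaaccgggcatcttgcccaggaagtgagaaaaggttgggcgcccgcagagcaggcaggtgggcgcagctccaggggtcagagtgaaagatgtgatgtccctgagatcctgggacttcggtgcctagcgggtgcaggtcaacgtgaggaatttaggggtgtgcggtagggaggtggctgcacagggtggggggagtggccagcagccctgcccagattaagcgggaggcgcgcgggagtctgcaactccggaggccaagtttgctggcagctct
Col4a5: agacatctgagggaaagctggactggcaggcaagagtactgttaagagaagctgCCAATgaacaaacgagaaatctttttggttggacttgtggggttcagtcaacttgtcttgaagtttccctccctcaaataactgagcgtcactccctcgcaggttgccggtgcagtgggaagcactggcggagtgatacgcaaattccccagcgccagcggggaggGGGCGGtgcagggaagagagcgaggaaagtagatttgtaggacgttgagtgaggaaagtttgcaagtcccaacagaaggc
The Col4a4 window had 63.3% GC and 14 CpG dinucleotides with no match to either motif, and the Col4a5 window 52.7% and 11 with 1 match to each.

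Laminin genes moved in both directions. Lama5 encodes the alpha chain of many adult epithelial and vascular basement membranes, and by brightest probes it had the largest change of the chain genes measured on both sides. Its expression values were 0.760, 0.735 and 0.688 in normal livers and 9.12, 6.53 and 6.03 in tumors. Every tumor was far above every normal liver, and Lama5 was 9.78-fold higher in tumor (log2 fold change 3.29, SE 0.17, adjusted p = 0.000140 by limma). Lamb2, a beta chain of mature basement membranes, had values of 0.451, 0.475 and 0.338 in normal livers and of 0.837, 1.12 and 0.949 in tumors. The groups were again apart, and Lamb2 was 2.31-fold higher in tumor (log2 fold change 1.21, SE 0.18, adjusted p = 0.00479 by limma).

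The other alpha and beta chains with a called change fell. Lama1, the alpha chain of embryonic basement membranes, had values of 2.34, 2.67 and 2.59 in normal livers and of 0.539, 1.002 and 1.40 in tumors. It was 2.77-fold lower in tumor (log2 fold change -1.47, SE 0.33, adjusted p = 0.0181 by limma), a call that was lost without normal liver 2 (adjusted p = 0.0592 by limma) and without normal liver 3 (adjusted p = 0.0541 by limma). Lama3, an alpha chain of epithelial anchoring contacts, had values of 2.47, 1.95 and 1.81 in normal livers and of 0.288, 0.395 and 0.653 in tumors. The groups were wide apart, and Lama3 was 4.90-fold lower in tumor (log2 fold change -2.29, SE 0.30, adjusted p = 0.00335 by limma), with a log2 fold change of -4.24 (SE 0.70, adjusted p = 0.00643 by limma) from its second probe, which was well above background in 2 of the 3 tumors.

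Lamb1, a widely expressed beta chain, had values of 2.09, 2.32 and 2.13 in normal livers and of 0.956, 1.06 and 1.35 in tumors. All tumors were below all normal livers, and Lamb1 was 1.96-fold lower in tumor (log2 fold change -0.97, SE 0.15, adjusted p = 0.00576 by limma). Lamc1 encodes the gamma chain that most laminins contain, with either beta chain. It had values of 2.10, 1.91 and 1.73 in normal livers and of 3.05, 2.73 and 2.11 in tumors. The groups barely separated, and Lamc1 did not pass the test (log2 fold change 0.45, SE 0.17, adjusted p = 0.0842 by limma) except without tumor 3 (adjusted p = 0.0312 by limma).

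Beside one another, Lamb2 and Lamb1 differed in their log2 change by 2.18 (SE 0.22, n = 3 per group). For Lama5 and Lama1 this difference was 4.76 (SE 0.59), and for Lama5 and Lama3 it was 5.58 (SE 0.52). These pairs were chosen after the values were seen, so the differences are descriptions. The remaining tested laminin genes, Lama2, Lama4 and Lamb3, did not pass the test, with log2 fold changes of -0.28, 0.30 and -0.73. Lamc3 was above background on too few arrays to be tested.

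**Figure D2:**
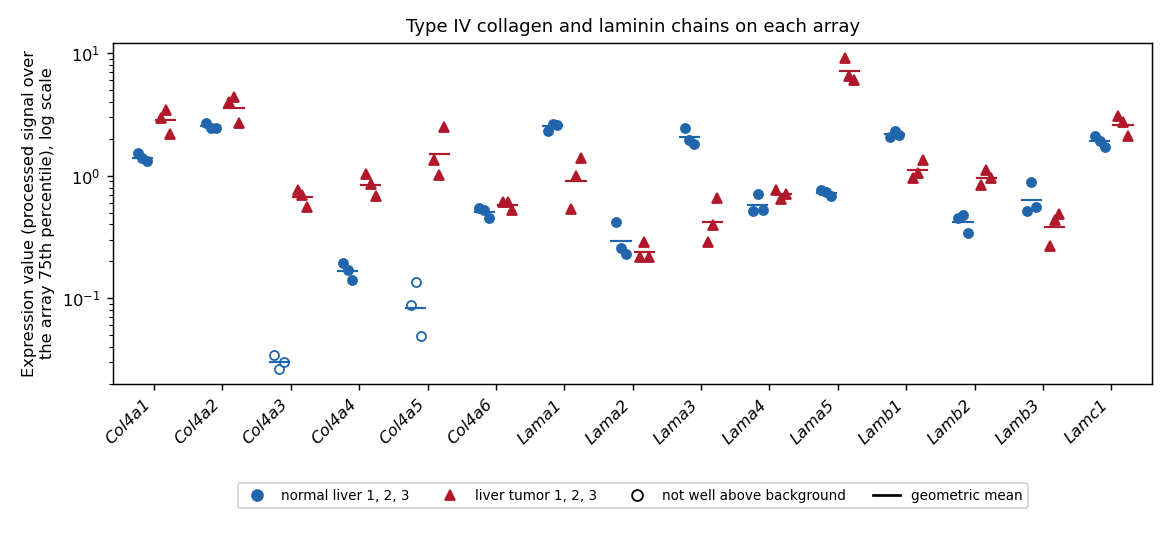
Expression values (log axis) of the 6 type IV collagen genes and the 9 tested laminin genes in normal livers 1 to 3 (blue circles, left to right) and tumors 1 to 3 (red triangles), with geometric means as lines and open symbols for signals not well above background. Lama5 rises from at most 0.760 in normal liver to at least 6.03 in tumor, while Lama1, Lama3 and Lamb1 lie lower in every tumor than in any normal liver.

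The promoter windows of the alpha chain that rose most and of the beta chain that fell are printed with the same marking, as examples of both directions among laminins. They lie at chr2:180225810-180226109 on the minus strand and at chr12:31265043-31265342 on the plus strand.
Lama5: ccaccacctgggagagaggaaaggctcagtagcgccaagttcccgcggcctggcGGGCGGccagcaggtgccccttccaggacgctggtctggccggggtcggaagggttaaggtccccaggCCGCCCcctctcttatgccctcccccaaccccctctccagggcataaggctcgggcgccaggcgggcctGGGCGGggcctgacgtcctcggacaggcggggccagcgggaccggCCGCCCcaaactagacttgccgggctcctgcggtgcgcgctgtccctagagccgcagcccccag
Lamb1: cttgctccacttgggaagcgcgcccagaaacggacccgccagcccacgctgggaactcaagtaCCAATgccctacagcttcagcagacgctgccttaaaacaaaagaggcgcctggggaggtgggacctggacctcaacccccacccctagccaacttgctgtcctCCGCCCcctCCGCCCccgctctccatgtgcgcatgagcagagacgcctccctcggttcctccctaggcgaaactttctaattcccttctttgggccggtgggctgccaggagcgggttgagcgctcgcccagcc
The Lama5 window held 4 matches to the GC box and none to the CCAAT box at 72.7% GC, and the Lamb1 window 2 and 1 at 63.7% GC. No window printed here held the TATA box letters TATAAA, present in 14.2% of all promoters. None held the AP-1 motif either, searched as TGANTCA and present in 7.93%. A match or its absence describes these letters in these windows alone.

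The fibrillar genes were split between type I, which rose or did not pass the test, and the minor fibrillar types, which fell where they were called. Col1a1 encodes the major chain of type I collagen, the most abundant fibrillar collagen. It had values of 0.908, 0.711 and 0.372 in normal livers and of 1.96, 2.19 and 1.499 in tumors. The lowest tumor was above the highest normal liver, and Col1a1 was 2.99-fold higher in tumor (log2 fold change 1.58, SE 0.34, adjusted p = 0.0154 by limma). Col1a2, which supplies the other chain of the same trimer, had values of 4.89, 3.90 and 2.78 in normal livers and of 4.79, 6.91 and 4.85 in tumors. Normal liver 1 was slightly above tumors 1 and 3, and Col1a2 did not pass the test (log2 fold change 0.53, SE 0.25, adjusted p = 0.146 by limma). The log2 changes of Col1a1 and Col1a2 differed by 1.05 (SE 0.20, n = 3 per group), again without a test. Col3a1, whose product joins type I fibrils, had values of 2.47, 1.81 and 1.55 in normal livers and of 2.21, 2.32 and 2.48 in tumors, groups that overlapped (log2 fold change 0.29, SE 0.19, adjusted p = 0.270 by limma).

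Type V chains are incorporated into type I fibrils and limit their diameter. Col5a3 had expression values of 16.7, 19.1 and 12.9 in normal livers and of 3.15, 7.28 and 7.09 in tumors. Every tumor was below every normal liver, and Col5a3 was 2.94-fold lower in tumor (log2 fold change -1.55, SE 0.35, adjusted p = 0.0177 by limma). The call was lost without normal liver 1 (adjusted p = 0.0553 by limma) and without normal liver 2 (adjusted p = 0.0611 by limma). Col5a1 fell by 0.73 on the log2 scale (SE 0.15, adjusted p = 0.0143 by limma), with values of 0.485 to 0.569 in normal livers and of 0.264 to 0.363 in tumors, and lost its call without normal liver 2 (adjusted p = 0.0542 by limma) and with spike-in scaling (adjusted p = 0.129 by limma). Col27a1, a fibrillar collagen of cartilage in particular, had values of 1.58, 1.58 and 0.873 in normal livers and of 0.287, 0.567 and 0.574 in tumors. It was 2.86-fold lower in tumor (log2 fold change -1.52, SE 0.35, adjusted p = 0.0203 by limma), and its call was lost without normal liver 1 (adjusted p = 0.0654 by limma) and without normal liver 2 (adjusted p = 0.0682 by limma). Col11a2 did not pass the test (log2 fold change -0.25), Col24a1 was above background on 1 array, and Col2a1, Col5a2 and Col11a1 on none.

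The 27 other collagen genes comprise fibril-associated, beaded-filament, network, transmembrane and basement membrane zone chains, of which 13 were above background on no array, 4 on too few and 10 were tested. Col6a6, an alternative chain of type VI beaded filaments, had values of 0.0382, 0.0288 and 0.0261 in normal livers, none well above background, and of 0.324, 0.429 and 0.663 in tumors. It was at least 3.48-fold higher in tumor (adjusted p = 0.000433 by limma), and its second probe was above background in 2 of the 3 tumors and in no normal liver. The other tested type VI genes did not pass the test, with log2 fold changes of -0.95 for Col6a1 (adjusted p = 0.0593 by limma) and -0.27 for Col6a3. Col14a1, a collagen that sits on fibril surfaces, had values of 4.39 to 5.86 in normal livers and of 2.50 to 3.86 in tumors. It fell by 0.77 on the log2 scale (SE 0.20, adjusted p = 0.0278 by limma), and lost its call when normal liver 1 or 2 or tumor 1 or 3 was left out (adjusted p = 0.0624 to 0.0900 by limma) and with spike-in scaling (adjusted p = 0.132 by limma).

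Col18a1, the precursor of the fragment endostatin, is expressed by hepatocytes. Its brightest probe had values of 202, 223 and 224 in normal livers and of 197, 173 and 181 in tumors. The tumors were slightly below the normal livers and the gene did not pass the test (log2 fold change -0.24, SE 0.11, adjusted p = 0.146 by limma), while its second probe fell by 0.68 on the log2 scale (adjusted p = 0.00873 by limma). The related Col15a1 was above background on no array. Col7a1, Col9a2, Col16a1, Col20a1 and Col25a1 did not pass the test, with log2 fold changes from -1.02 for Col9a2 to -0.18 for Col7a1, so that Col6a6 was the single tested gene among these 10 with a positive value.

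**Figure D3:**
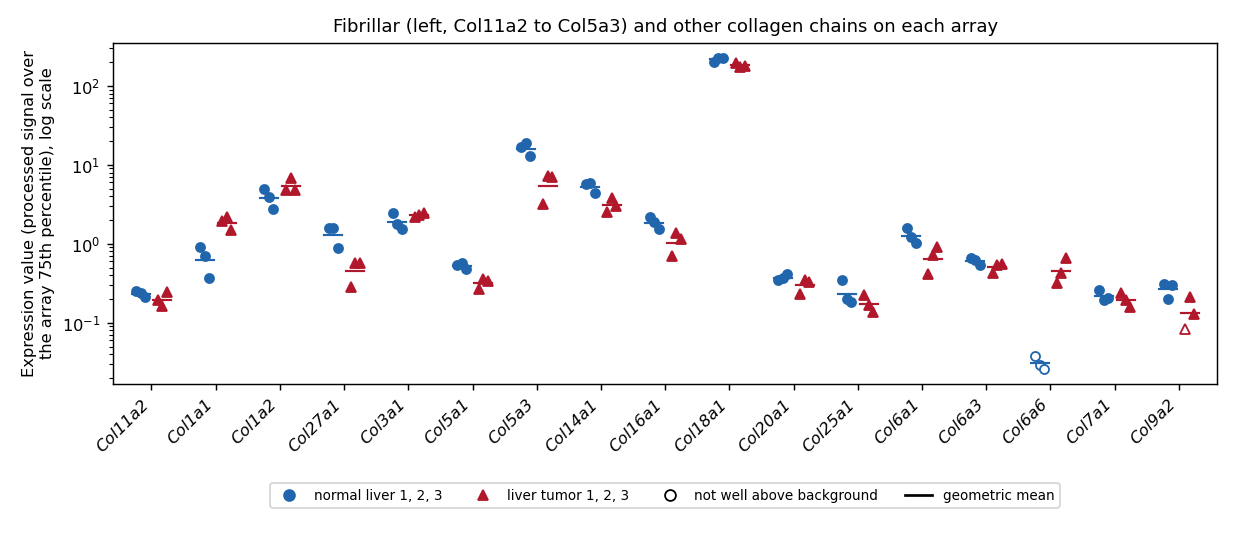
Expression values (log axis) of the 7 tested fibrillar collagen genes (Col11a2 to Col5a3, left) and the 10 tested other collagen genes in normal livers 1 to 3 (blue circles, left to right) and tumors 1 to 3 (red triangles), with geometric means as lines and open symbols for signals not well above background. Col1a1 lies higher in every tumor and Col5a3, Col27a1, Col5a1 and Col14a1 lower, with tumor 1 the lowest of the tumors in these 4 genes.

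The tumors were not equal among themselves. Tumor 1 had the lowest value of the 3 tumors in 7 of the 7 chain genes that fell, and this was also so in 66.8% of all 3901 genes that fell. Among the 8 chain genes that rose, tumor 3 was the lowest tumor in 5, against 47.7% of all genes that rose.

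Genes whose products fold, trim, link or bind the chains were taken from lists of known function, and the counts of these and of the marker lists stand beside 13.1% rising and 21.0% falling among all genes. Of 18 genes for collagen folding and modification, 16 were tested, of which 2 rose and 3 fell. The fallers were P4ha2, a prolyl hydroxylase subunit (log2 fold change -1.76, SE 0.33, adjusted p = 0.00942 by limma), Colgalt2, a collagen galactosyltransferase (-1.60), and P3h3, which is related to prolyl 3-hydroxylases (-0.86). Crtap (0.90) and P3h1 (0.58), which form a prolyl 3-hydroxylase complex, rose. Serpinh1, the collagen chaperone, did not pass the test (log2 fold change -0.11, adjusted p = 0.670 by limma). The Colgalt2 call was lost without normal liver 2 (adjusted p = 0.0604 by limma) or tumor 2 (adjusted p = 0.0562 by limma).

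Of 18 genes for propeptide removal, cross-linking and fibril partners, 14 were tested, of which 4 rose and 6 fell. Of the 4, Loxl1 and Loxl4 passed the filter on low values only through the tumors and were thereby selected for a higher value there. Loxl1 was at least 1.70-fold higher. Adamts14, a procollagen N-propeptidase, had expression values of 0.405 to 0.450 in normal livers and of 4.19 to 10.6 in tumors (log2 fold change 3.99, SE 0.32, adjusted p = 0.000580 by limma). Sparc, a collagen-binding glycoprotein, had values of 109 to 116 in normal livers and of 491 to 891 in tumors (log2 fold change 2.59, SE 0.22, adjusted p = 0.000706 by limma). Loxl4, a lysyl oxidase, rose by 3.28 on the log2 scale (SE 0.79, adjusted p = 0.0219 by limma), with 1 normal liver above background and a call that was lost without normal liver 2 (adjusted p = 0.0637 by limma) or tumor 2 (adjusted p = 0.0585 by limma). Dcn, the fibril-binding proteoglycan decorin, had values of 75.8 to 96.4 in normal livers and of 17.8 to 37.7 in tumors (log2 fold change -1.64, SE 0.28, adjusted p = 0.00711 by limma).

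Of 12 basement membrane partners, 10 were tested, of which 3 rose and 1 fell. Nid1 encodes nidogen, which links laminin to type IV collagen. It had values of 1.59, 1.90 and 1.71 in normal livers and of 59.1, 57.9 and 52.0 in tumors, the largest log2 fold change in this list (5.02, SE 0.12, adjusted p = 8.7e-06 by limma). Smoc2, a SPARC-related protein, rose by 3.30 on the log2 scale (SE 0.26), and Ntn4, a netrin that binds laminin, by 2.44 (SE 0.43), with 2 of the 3 normal livers above background. Ntn4 thus passed the filter on low values only through the tumors and was thereby selected for a higher value there. Fras1, of a protein complex that joins epidermis and dermis in the embryo, fell by 3.43 on the log2 scale (SE 0.48, adjusted p = 0.00402 by limma), being above background in 1 of the 3 tumors. The perlecan gene Hspg2, with values of 3.48 to 3.86 in normal livers and of 4.44 to 4.82 in tumors, did not pass the test (adjusted p = 0.0543 by limma).

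All 14 receptor genes were tested, of which 5 rose and 1 fell. Ddr1, a collagen receptor tyrosine kinase, passed the filter only through the tumors, being well above background in all 3 of them and in no normal liver, and was at least 7.41-fold higher in tumor (adjusted p = 0.000293 by limma). Itga11, the alpha chain of a fibrillar collagen receptor, had values of 0.0791 to 0.147 in normal livers, where 1 of the 3 was above background, and of 1.61 to 3.58 in tumors (log2 fold change 4.46, SE 0.34, adjusted p = 0.000529 by limma). Like Ddr1, Itga11 passed the filter only through the tumors, so its adjusted p is no support for the rise. Itga6, the alpha chain of a laminin receptor, had values of 2.65 to 2.97 in normal livers and of 14.9 to 19.0 in tumors (log2 fold change 2.62, SE 0.13, adjusted p = 0.000119 by limma). Itga3, another laminin receptor chain, rose by 1.28 on the log2 scale (SE 0.14). The beta chain gene Itgb1, which pairs with these integrin chains, did not pass the test (log2 fold change 0.20, adjusted p = 0.260 by limma).

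**Figure D4:**
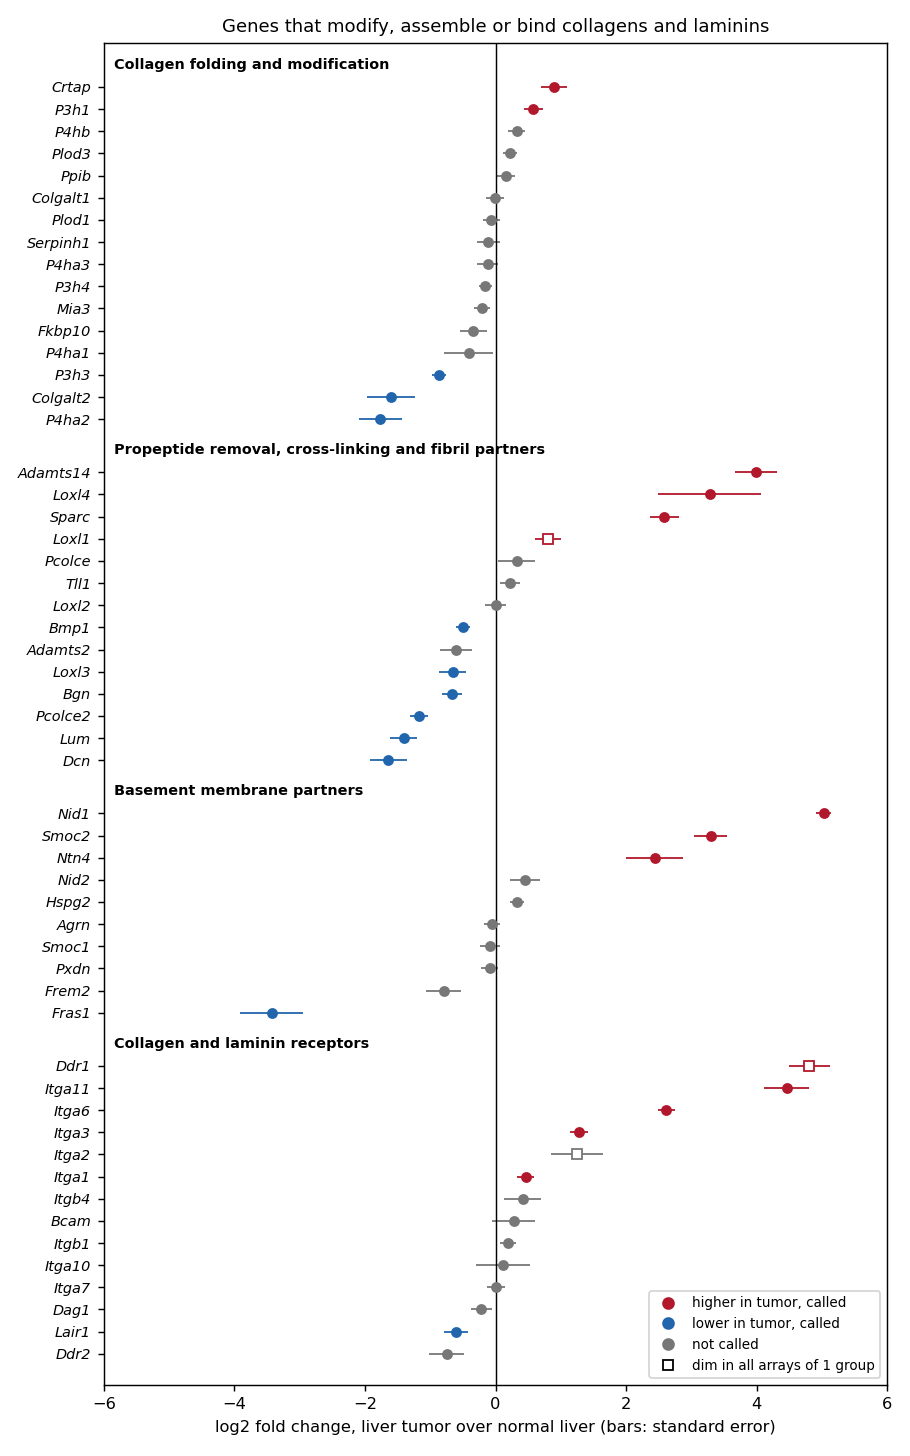
Log2 fold change of liver tumor over normal liver, with standard errors as bars (n = 3 per group), for the tested genes of the lists for collagen folding, fibril assembly, basement membranes and receptors, colored as in the plot of the chains. Nid1 (5.02) lies farthest to the right and Fras1 (-3.43) farthest to the left, and open squares (Ddr1, Itga2, Loxl1), dim on every normal array, are drawn at fitted values that are not bounds.

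Marker lists of the cell types that make these chains were read beside them. Of 15 markers of stellate cells and fibroblasts 14 were tested, of which 1 (Reln) rose and 8 fell, and Gfap was above background on no array. Their summed expression values were 27.8 to 29.2 in normal livers and 21.7 to 26.6 in tumors. Lrat, Hand2 and Tcf21, which mark quiescent stellate cells, fell by 1.83, 1.96 and 1.84 on the log2 scale. Of these, Hand2 and Tcf21 were each well above background in 2 of the 3 tumors. Reln rose by 0.72 (adjusted p = 0.0214 by limma). Acta2, a marker of activated stellate cells, had values of 0.785 to 1.09 in normal livers and of 1.37 to 3.82 in tumors. It did not pass the test (adjusted p = 0.0587 by limma).

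Of 12 endothelial markers, 3 rose and 2 fell, and the sums were 120 to 136 and 104 to 113. The median log2 fold change of the 12 was 0.07, and bright probes weigh most in the sums. Mean values in normal liver and tumor were 49.5 and 35.1 for Clec4g, 28.5 and 16.5 for Stab2, and 28.2 and 28.0 for Kdr. Cd34, found on capillary endothelium, rose by 2.46 on the log2 scale, and Emcn by 0.70. Pecam1, Vwf and Plvap did not pass the test, with log2 fold changes of -0.01, -0.54 and -0.27. Of the sinusoidal markers, Stab1 rose by 0.66, while Stab2 fell by 0.78 and Clec4g by 0.49. Lyve1 did not pass the test (log2 fold change 1.50, adjusted p = 0.0913 by limma). Of 9 cholangiocyte markers 6 were tested and only Krt23 rose, so that the sums of 3.04 to 3.85 in normal livers and 27.02 to 41.2 in tumors were set by this gene, with Krt19 and Epcam each at or below 0.377 on every array and Muc1 above background on none. Macrophage markers had 0 rising and 6 falling genes of 8, with sums of 101 to 173 and 51.4 to 84.7, and hepatocyte markers 1 rising and 3 falling of 9. The part of these cell types in the changes of the chain genes was not tested.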

How the data were processed

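Total RNA of 3 normal livers and 3 liver tumors was hybridised to 6 arrays with 1 dye. The authors deposited, per array, processed signal intensity (background subtracted, spatially detrended), and a table holding its ratio to the array's 75th percentile, which was used as an alternative. The Feature Extraction version is 10.7.3.1 in the file headers and 12.0.3.1 in the labels, and the effect of this discrepancy was not tested.

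Here each array's log2 75th percentile, taken over all spots, was subtracted from its log2 intensity, without control and outlier spots and with spots of a probe averaged. A probe was tested if all 3 normal or all 3 tumor arrays were well above background, and the 24898 that passed were compared with limma 3.58.1 (lmFit, eBayes; R 4.3.3), two-sided, and called at a Benjamini-Hochberg adjusted p under 0.05. An exact permutation test of 3 against 3 samples cannot go below p = 0.1 and was not used for calls. The number of arrays limits the precision. The fit was tested on simulated data.

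The members and lists were chosen with earlier results of these data known. Named with values were Col1a1, Col1a2, Col3a1, Col4a1, Col4a2, Col18a1, Lamb1 and Lamc1, members called at 2-fold or more, members bound on 1 side and, for each pathway list, up to 4 called genes with the largest change; others were named after their values were seen. Probes were named through RefSeq accessions (GRCm38.p6), and promoter windows from RefSeq matched 40 of the 55 genes. Alternatives were other background corrections, scalings, filters and tests, a replicate block and leaving out each array. Not every member is reported by name here.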

Additional observations from a re-analysis of the deposited data

How the results depend on the processing

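With all alternatives fitted by limma (15 of them), 9 of the 18 chains named by rule kept their side of the threshold in every one, and 12 did so wherever they were tested. No direction changed. The counts of rising and falling chains were 8 and 7. The falling count became 3 with no filter on dim probes and 4 with a minimum change of 2-fold, and the rising count became 5 with a filter on all 6 arrays, which removes Col4a3, Col4a5 and Col6a6. With that filter 9 chains fell, as with a trend in eBayes, and with normexp background correction 10 did. Col6a1 and Col16a1, not called in the main fit, were called lower in each of these 3 settings. Leaving out single arrays gave 8 to 10 rising and 2 to 9 falling chains, medians of the laminin genes from -0.46 to -0.019, and 2346 to 2804 rising and 2608 to 4368 falling probes of all, against 3112 and 5126 with all arrays. Over all probes, spike-in scaling gave 2045 falling, no filter 2071 rising and 2603 falling, and a minimum of 2-fold 1820 and 1658. The criteria of 2-fold, a mean above 1.0 in either group and an unadjusted p under 0.05 gave 4 rising and 4 falling chains and 1006 and 1030 probes without pairing, and 2 and 3 chains and 704 and 895 probes with the pairing the methods state (added after seeing the data). Taking each gene's probe brightest in normal liver, also added then, gave 7 rising and 7 falling chains and a type IV median of 0.76. With that choice Col4a4 had a log2 fold change of -0.16 and was not called (adjusted p = 0.592 by limma). After Benjamini-Hochberg adjustment the methods' t-test gave 5 rising chains and 1739 rising probes. Paired by number, it gave 0 rising and 0 falling chains and 0 and 0 probes after adjustment, 6 and 5 chains and 2405 and 5013 probes at an unadjusted p under 0.05, and limma 8 and 7 chains. The causes were not tested.

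Samples with the same number had correlations of 0.0688, 0.132 and 0.0506 between their deviations from the group means, so the numbers were not taken to pair the samples. With the replicate number as a block, limma gave 8 rising and 7 falling chains and 2805 and 4215 probes. The block ended the call of Crtap (adjusted p = 0.0510 by limma) and of no other gene named by rule. Slide and tissue coincide, so no block for slide could be fitted. Genes near background have little room to fall. Col4a3, Col4a5 and Col6a6 were not well above background on any normal array, so the size of their rise is given as a lower bound.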
